A study of Homo sapiens with 4 samples.

Results

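The laminin and integrin genes were examined in cells made from H1 by hematopoietic differentiation and taken on day 8, after culture in DMSO or in SB431542 (SB), an inhibitor of the TGFβ type I receptor kinases. Members were defined by symbol, with earlier results of these data known. They were all genes named for a laminin alpha, beta or gamma chain (LAMA, LAMB, LAMC) or an integrin alpha or beta subunit (ITGA, ITGB). ITGA2B and ITGB3 were left out. This gave 36 genes, 12 laminins and 24 integrins, of the 58365 rows of the table, each with 1 row. H1 is an established human embryonic stem cell line. All 4 cultures received activinA with BMP4 for 2 days and then VEGF with bFGF for 3 days. During the last 3 days VEGF and bFGF went on, with DMSO in 2 libraries and with SB in the other 2. The study collected CD31-positive cells for sequencing, which the sample labels leave out. The labels do not say whether replicates 1 and 2 came from separate cultures, so p-values measure the spread between these libraries, which may be technical.

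Laminins are large secreted proteins of the basement membrane, each built from an alpha, a beta and a gamma chain. Integrins are receptors of an alpha and a beta subunit that span the cell membrane and bind laminin, fibronectin, collagen or other cells on the outside while linking to the actin cytoskeleton on the inside. Endothelial cells rest on laminins containing the LAMA4 or LAMA5 chain, and laminin containing LAMA1 is typical of early embryonic epithelia.

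Levels are given as FPKM, a fragment count scaled to the length of the transcript and the size of the library, so that genes can be compared with each other. Differences between groups are SB minus DMSO on log2(FPKM + 1), and genes with a mean of at least 1 FPKM in at least 1 group were tested. Of the 36 members, 22 passed this filter (7 laminins and 15 integrins) and 14 did not. In single-exon genes with 1 transcript, the lowest values stepped by what 1 fragment is worth, which placed the libraries at about 19700000 to 26000000 fragments. PECAM1, the CD31 gene, was at 197 and 163 FPKM with DMSO and at 182 and 153 FPKM with SB, and the 10 listed endothelial markers were all above the filter. PTPRC, which encodes the leukocyte antigen CD45, reached at most 0.202 FPKM.

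The main fit had group as its only term. In it none of the 22 tested members passed the adjustment over all genes tested (0 of 22 with limma, against 0.134% of all 14909 genes). A limma fit that added replicate number gave 12 (10.5% of all genes), but the labels do not say what the numbers mark. In the main fit 10 members had an unadjusted p under 0.05, against 9.96% of all genes. Of these, 6 were lower with SB (5.16% of all genes) and 4 were higher (4.8% of all genes). The 6 were LAMA1, LAMB1, ITGA3, ITGA5, ITGA7 and ITGA2, and the 4 were LAMA4, ITGA8, ITGB2 and ITGA4. The difference was below 0 in 16 of the 22 (43.8% of all genes) and had the same sign within both replicate numbers in 20 (71.5% of all genes). The groups did not overlap in 14 members (37.5% of all genes), with SB wholly below DMSO in 10 (16.0% of all genes) and wholly above it in 4 (21.5% of all genes). The median difference was -0.66 over the 7 laminins and -0.27 over the 15 integrins, beside 0.04 over all genes tested. In bulk RNA fewer cells of a type and less RNA per cell cannot be told apart. The unadjusted count was 5 when SB replicate 1 was left out and 6 when SB replicate 2 was. Leaving out DMSO replicate 1 or SB replicate 2 brought the laminin median to -0.20 or -0.16, and leaving out DMSO replicate 2 or SB replicate 1 brought it to -1.14 or -1.17.

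**Figure D1:**
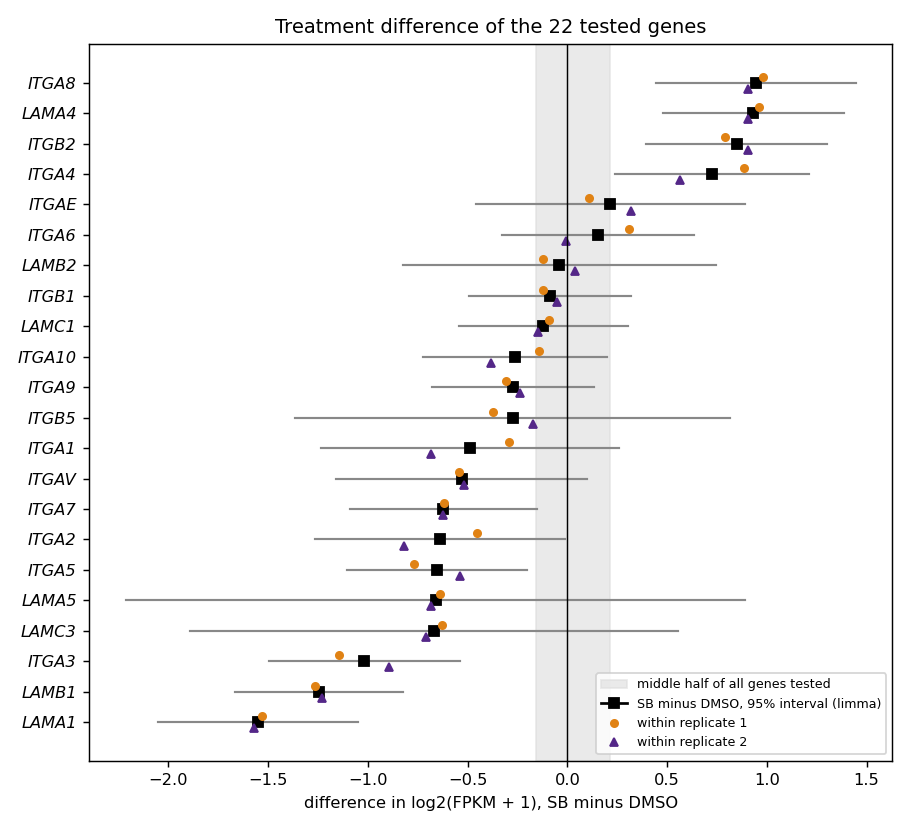
Difference in log2(FPKM + 1), SB minus DMSO, for the 22 tested members (squares) with the 95% interval from limma (lines), and the same difference within replicate 1 (circles) and replicate 2 (triangles). The shaded band runs from the lower to the upper quartile of all 14909 genes, -0.16 to 0.21. LAMA1 lies lowest at -1.55 and ITGA8 highest at 0.94, and LAMA5 has an interval from -2.21 to 0.89 although its values within replicates are -0.64 and -0.68.

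The sequences before the start sites of the 4 most abundant laminin chains are printed because LAMB1 differed between the groups and LAMB2, LAMC1 and LAMA5 overlapped between them. The sequences are from the RefSeq promoter table (GRCh38.p14), 5′ to 3′. Of the 250 bases before each start, the longest run outside annotated exons is shown. It is 250 bases long for LAMA5 and LAMC1, 156 for LAMB1 and 182 for LAMB2. The runs of LAMB1 and LAMB2 end 94 and 68 bases before the start. Capitals mark GGGCGG, the GC box bound by SP and KLF factors, and CAGAC, a motif that SMAD proteins can bind, each on either strand, and matches that shared bases were each counted.
LAMA5 (chr20:62367313-62367562, minus strand): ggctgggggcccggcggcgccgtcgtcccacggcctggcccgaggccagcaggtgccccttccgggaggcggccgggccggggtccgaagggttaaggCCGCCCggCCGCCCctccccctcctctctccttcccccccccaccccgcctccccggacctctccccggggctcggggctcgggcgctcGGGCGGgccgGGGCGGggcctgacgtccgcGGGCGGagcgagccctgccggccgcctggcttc
LAMB1 (chr7:108003256-108003411, minus strand): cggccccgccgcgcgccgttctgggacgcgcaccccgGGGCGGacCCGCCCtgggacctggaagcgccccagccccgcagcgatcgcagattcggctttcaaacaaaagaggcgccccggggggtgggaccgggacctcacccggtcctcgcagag
LAMB2 (chr3:49133119-49133300, minus strand): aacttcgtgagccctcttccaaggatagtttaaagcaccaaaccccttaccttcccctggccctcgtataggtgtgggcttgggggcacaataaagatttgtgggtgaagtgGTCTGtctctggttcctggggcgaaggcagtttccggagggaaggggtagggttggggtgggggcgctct
LAMC1 (chr1:183023170-183023419, plus strand): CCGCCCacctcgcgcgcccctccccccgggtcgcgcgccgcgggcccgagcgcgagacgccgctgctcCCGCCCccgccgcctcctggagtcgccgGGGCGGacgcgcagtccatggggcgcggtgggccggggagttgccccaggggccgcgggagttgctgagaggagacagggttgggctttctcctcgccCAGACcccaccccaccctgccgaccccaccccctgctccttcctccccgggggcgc
GGGCGG occurred 5 times in the LAMA5 sequence, 2 times in LAMB1, 0 times in LAMB2 and 3 times in LAMC1. CAGAC occurred once each in LAMB2 and LAMC1 and 0 times in LAMA5 and LAMB1. In the full 250 bases before all 35116 starts of the table, exons included, 42.6% held GGGCGG and 38.0% held CAGAC. The shorter LAMB1 and LAMB2 sequences cannot be set directly beside these shares. Of the 25 members with an entry, 14 (56.0%) held GGGCGG and 12 (48.0%) held CAGAC before at least 1 start, against 46.2% and 42.8% of all 27305 genes of the table counted in the same way. G and C made up 82.8% of the LAMA5 sequence, 75% of LAMB1, 56.6% of LAMB2 and 79.6% of LAMC1. LAMA1 had no entry.

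Among the laminin alpha chains, which carry the main binding site for cell receptors, LAMA1 and LAMA4 went opposite ways. LAMA1 (ENSG00000101680.14, GRCh38 chromosome 18, 6941744 to 7117814) stood at 3.99 and 4.40 FPKM with DMSO and at 0.726 and 0.818 FPKM with SB. The groups were far apart for their spread, at 4.19 ± 0.288 and 0.772 ± 0.0653 FPKM (SD, n = 2 each), a 5.43-fold lower mean with SB. The difference was -1.55 on the log2 scale (SE 0.19, limma adjusted p 0.0969), and it was -1.53 within replicate 1 and -1.57 within replicate 2. LAMA4 (ENSG00000112769.18, chromosome 6, 112108760 to 112254939), the alpha chain of early endothelial basement membrane, stood at 3.18 and 2.94 FPKM with DMSO and at 7.12 and 6.38 FPKM with SB. Both SB libraries were above both DMSO libraries, with a mean 2.21-fold higher (difference 0.93, SE 0.17, limma adjusted p 0.20; 0.96 and 0.91 within replicates). With DMSO the FPKM of LAMA1 was 1.25 and 1.49 times that of LAMA4, and with SB it was 0.102 and 0.128 times.

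LAMA5, the alpha chain of mature endothelial and epithelial basement membranes, was by far the most abundant alpha chain, with 88.2% to 96.6% of the alpha chain FPKM in each library. It stood at 213 and 89.0 FPKM with DMSO and at 136 and 55.1 FPKM with SB, so that replicate 2 was lower than replicate 1 under either treatment and the groups overlapped. The difference was -0.66 (SE 0.60, limma adjusted p 0.833), with a 95% interval from -2.21 to 0.89. It was -0.64 within replicate 1 and -0.68 within replicate 2, smaller than the gap between replicate numbers, which was -1.25 with DMSO and -1.29 with SB. Leaving out single libraries moved the difference between -1.31 (SB replicate 1) and -0.0154 (SB replicate 2). LAMA2, the chain of muscle and nerve laminin, and LAMA3, that of epidermal laminin, were under the filter, at no more than 0.367 FPKM in any library.

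Apart from LAMA5, the alpha chain FPKM summed to 7.44 and 7.72 with DMSO and to 8.12 and 7.38 with SB. The makeup of this remainder differed between the groups more than its sum did. LAMA1 took 53.6% and 56.9% of it with DMSO and 8.94% and 11.1% with SB. LAMA4 took 42.7% and 38.1% with DMSO and 87.7% and 86.5% with SB. These shares are a description of 2 libraries per group.

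**Figure D2:**
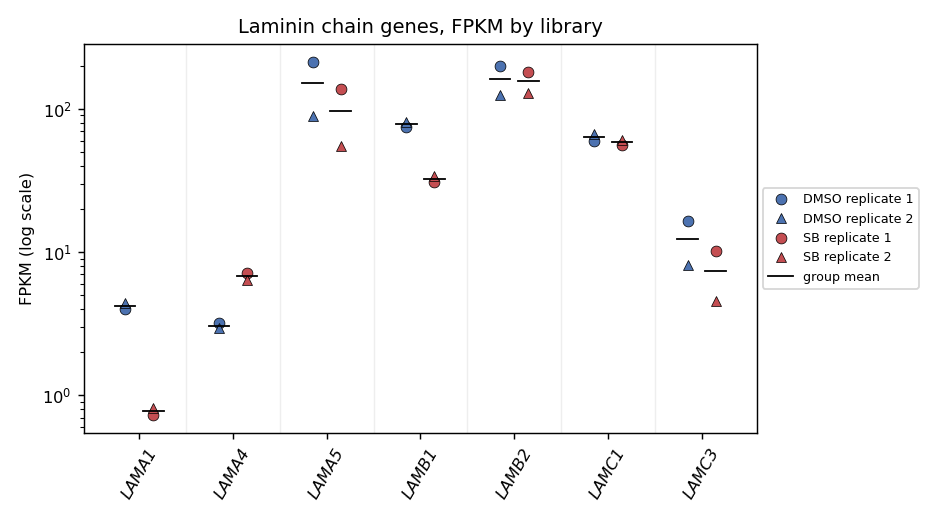
FPKM (log axis) of the 7 tested laminin chains in each library, with circles for replicate 1, triangles for replicate 2, blue for DMSO, red for SB and bars for the group means. LAMA1 and LAMB1 lie lower with SB and LAMA4 lies higher, without overlap, while LAMA5 and LAMC3 are split by replicate number within each treatment.

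Of the beta chains, LAMB1 differed between the groups and LAMB2 was similar in them. LAMB1 (ENSG00000091136.13, chromosome 7, 107923799 to 108003255), the beta chain of embryonic laminins, stood at 74.8 and 80.7 FPKM with DMSO and at 30.6 and 33.9 FPKM with SB. The means were 77.7 ± 4.21 and 32.2 ± 2.35 FPKM (SD, n = 2 each), 2.41-fold lower with SB, and the libraries of a group lay close together. The difference was -1.25 (SE 0.16, limma adjusted p 0.105; -1.26 and -1.23 within replicates). LAMB2, which replaces LAMB1 in many adult basement membranes, stood at 197 and 125 FPKM with DMSO and at 181 and 129 FPKM with SB, a difference of -0.04 with a 95% interval from -0.83 to 0.74 (limma adjusted p 0.990). LAMB1 made up 27.4% and 39.2% of the beta chain FPKM with DMSO and 14.4% and 20.8% with SB. LAMB3, of epidermal laminin, and LAMB4 reached at most 0.349 FPKM.

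LAMC1, the gamma chain of most laminins and the usual partner of LAMB1, did not follow it. LAMC1 stood at 59.9 and 66.9 FPKM with DMSO and at 56.1 and 60.3 FPKM with SB, a difference of -0.12 with a 95% interval from -0.54 to 0.30 (limma adjusted p 0.910). The ratio of LAMB1 to LAMC1 was 1.25 and 1.21 with DMSO and 0.545 and 0.562 with SB. LAMC3, a gamma chain outside the classical trimers, stood at 16.4 and 8.09 FPKM with DMSO and at 10.2 and 4.57 FPKM with SB. As with LAMA5 the groups overlapped, and the difference of -0.67 (SE 0.47, limma adjusted p 0.764) was -0.63 within replicate 1 and -0.71 within replicate 2. It ran from -1.17 without SB replicate 1 to -0.16 without SB replicate 2.

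Of the integrin alpha subunits that bind laminin, ITGA3 and ITGA7 were lower with SB and ITGA6 was not. ITGA3 (ENSG00000005884.17, chromosome 17, 50055968 to 50090481) stood at 17.0 and 13.6 FPKM with DMSO and at 7.16 and 6.88 FPKM with SB. Its means were 15.3 ± 2.41 and 7.02 ± 0.191 FPKM (SD, n = 2 each), 2.18-fold lower with SB (difference -1.02, SE 0.18, limma adjusted p 0.192; -1.14 and -0.89 within replicates). It was the only integrin with a difference of at least 1 in size, a limit that 3 members (LAMA1, LAMB1 and ITGA3) and 3.72% of all genes passed. All 3 were lower with SB (2.16% of all genes), and 0 members were higher by that much (1.56% of all genes). Without DMSO replicate 2 or without SB replicate 1, 6 members passed this limit. ITGA7, best known from muscle, stood at 6.11 and 5.43 FPKM with DMSO and at 3.63 and 3.17 FPKM with SB (difference -0.62, SE 0.18, limma adjusted p 0.365). ITGA6, a laminin receptor of stem cells, endothelium and epithelia, stood at 3.66 and 4.47 FPKM with DMSO and at 4.77 and 4.45 FPKM with SB, where the groups overlapped (difference 0.15, 95% interval from -0.33 to 0.63, limma adjusted p 0.895).

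The alpha subunits that bind the RGD motif of fibronectin and vitronectin differed in direction. ITGA5 (ENSG00000161638.10, chromosome 12, 54395261 to 54419460), the main fibronectin receptor subunit, was the most abundant alpha subunit among the members in each library, at 204 and 169 FPKM with DMSO and at 120 and 116 FPKM with SB. Both SB libraries were below both DMSO libraries, and the means of 187 ± 25.4 and 118 ± 2.85 FPKM (SD, n = 2 each) gave a difference of -0.65 (SE 0.17, limma adjusted p 0.322; -0.77 and -0.54 within replicates). ITGAV pairs with ITGB1, ITGB5, ITGB6 or ITGB8 among the members, and with ITGB3, which is no member, and can release TGFβ from its latent complex. ITGAV stood at 22.9 and 30.4 FPKM with DMSO and at 15.4 and 21.0 FPKM with SB (difference -0.53, SE 0.24, limma adjusted p 0.592, with -0.55 and -0.52 within replicates). ITGA8 (ENSG00000077943.7, chromosome 10, 15513949 to 15720125), an RGD-binding subunit of mesenchyme, went the other way, at 4.17 and 5.25 FPKM with DMSO and at 9.23 and 10.7 FPKM with SB. Its mean was 2.12-fold higher with SB (difference 0.94, SE 0.19, limma adjusted p 0.223; 0.98 and 0.91 within replicates), without overlap between the groups. ITGA5 made up 57.5% and 50.4% of the summed FPKM of the member alpha subunits with DMSO and 48.5% and 44.9% with SB. This sum leaves out ITGA2B, the platelet integrin subunit, which is no member and stood at 153 and 127 FPKM with DMSO and at 243 and 194 FPKM with SB, above ITGA5 in both SB libraries.

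**Figure D3:**
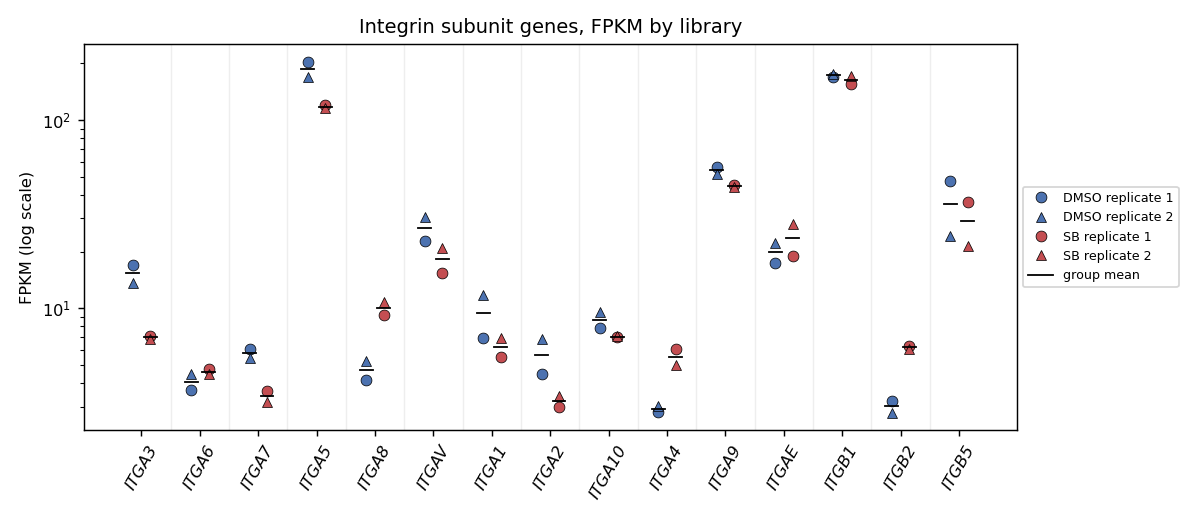
FPKM (log axis) of the 15 tested integrin subunits in each library, with symbols and colours for libraries as in the plot of laminin chains and bars for the group means. ITGA5 and ITGB1 stand highest of those plotted, both SB libraries lie below both DMSO libraries in 8 subunits, ITGA3 and ITGA5 among them, and ITGA8, ITGA4 and ITGB2 lie higher with SB.

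The collagen-binding alpha subunits were lower with SB in each tested case, with differences from -0.64 to -0.26. ITGA2, a collagen receptor of platelets and epithelia, stood at 4.47 and 6.83 FPKM with DMSO and at 2.99 and 3.43 FPKM with SB (difference -0.64, SE 0.24, limma adjusted p 0.493). ITGA1 stood at 6.97 and 11.8 FPKM with DMSO and at 5.5 and 6.96 FPKM with SB, so that SB replicate 2 almost reached DMSO replicate 1 (difference -0.49, SE 0.29, limma adjusted p 0.719). ITGA10, a collagen receptor of cartilage, stood at 7.85 and 9.54 FPKM with DMSO and at 7.02 and 7.09 FPKM with SB (difference -0.26, limma adjusted p 0.760). ITGA11, of fibroblasts, was under the filter at up to 0.637 FPKM. The 10 megakaryocyte markers, of a lineage in which ITGA2 is also expressed, summed to 285 and 263 FPKM with DMSO and to 642 and 712 FPKM with SB. ITGA2B, which is no member, was in this list. Of the 9 tested, 8 were higher at an unadjusted p under 0.05 (4.8% of all genes), 0 were lower and 0 passed the adjustment.

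ITGA4 and ITGA9 form a subfamily that binds VCAM1 and fibronectin. ITGA4, a subunit of blood progenitors and leukocytes, stood at 2.82 and 3.04 FPKM with DMSO and at 6.05 and 4.97 FPKM with SB, with no overlap (1.88-fold higher mean, difference 0.73, SE 0.19, limma adjusted p 0.311; 0.89 and 0.57 within replicates). ITGA9, next to ITGA5 among the member alpha subunits, stood at 56.1 and 51.9 FPKM with DMSO and at 45.2 and 43.9 FPKM with SB (difference -0.27, SE 0.16, limma adjusted p 0.713).

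Among the leukocyte integrins, ITGB2, the beta subunit shared by ITGAL, ITGAM, ITGAX and ITGAD, was higher with SB while its alpha partners stayed low. ITGB2 (ENSG00000160255.17, chromosome 21, 44885953 to 44931989) stood at 3.23 and 2.79 FPKM with DMSO and at 6.32 and 6.09 FPKM with SB, a 2.06-fold higher mean (difference 0.85, SE 0.18, limma adjusted p 0.226; 0.79 and 0.90 within replicates). ITGAL, the T cell and leukocyte partner, was under the filter at 0.347 and 0.0733 FPKM with DMSO and at 0.558 and 0.923 FPKM with SB. ITGAM, the CD11b subunit of myeloid cells, was also under the filter and ran opposite to ITGB2, at 0.429 and 0.610 FPKM with DMSO and at 0.0458 and 0.0521 FPKM with SB. If its longest annotated transcript is taken, these values correspond to about 46.5 and 63.9 fragments with DMSO and to 4.0 and 6.0 with SB, so counting error is large in the SB libraries. ITGAX reached at most 0.216 FPKM, and ITGAD was listed at 0 in all 4 libraries. ITGAE, known from mucosal T cells, was well above the filter at 17.4 and 22.3 FPKM with DMSO and at 18.9 and 28.1 FPKM with SB, where the groups overlapped (difference 0.21, limma adjusted p 0.893).

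Most tested pan-hematopoietic and myeloid markers were higher with SB, as ITGB2 and ITGA4 were, and erythroid markers were not. Of 10 pan-hematopoietic markers 8 were tested, of which 6 were higher with SB at an unadjusted p under 0.05 (4.8% of all genes). In this list 0 were lower in this way and 0 passed the adjustment. The summed FPKM was 165 to 196 with DMSO and 326 to 378 with SB. Of 10 myeloid markers 5 were tested and 3 were higher in the same way, with sums of 70.7 to 79.4 and of 179 to 194 FPKM. The tested myeloid markers AZU1 (difference -0.31, limma adjusted p 0.770) and LYZ (0.47, limma adjusted p 0.640) had no unadjusted p under 0.05. Of 10 erythroid markers 8 were tested, of which 4 were lower at an unadjusted p under 0.05 (5.16% of all genes) and 0 were higher. Their sums were 1659 to 2013 FPKM with DMSO and 1343 to 1662 FPKM with SB. ELANE and S100A8 were listed at 0 throughout. The part of these markers in the integrin values was not tested.

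ITGB1, the partner of most alpha subunits described here, was the most abundant beta subunit and hardly differed, at 168 and 177 FPKM with DMSO and at 155 and 170 FPKM with SB (difference -0.09, 95% interval from -0.49 to 0.32, limma adjusted p 0.945). The ratio of ITGA5 to ITGB1 was 1.21 and 0.955 with DMSO and 0.773 and 0.679 with SB. ITGB5, a vitronectin receptor subunit, stood at 47.6 and 24.1 FPKM with DMSO and at 36.5 and 21.3 FPKM with SB, and like LAMA5 it was split by replicate number (difference -0.27, 95% interval from -1.36 to 0.82, limma adjusted p 0.927). ITGB4, of hemidesmosomes, was under the filter with a highest value of 1.25 FPKM. ITGB6 and ITGB8, which with ITGAV activate latent TGFβ, and ITGB7, a lymphocyte subunit, were under it at no more than 0.412 FPKM. ITGB8 stood at 0.296 and 0.299 FPKM with DMSO and at 0.114 and 0.120 FPKM with SB.

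**Figure D4:**
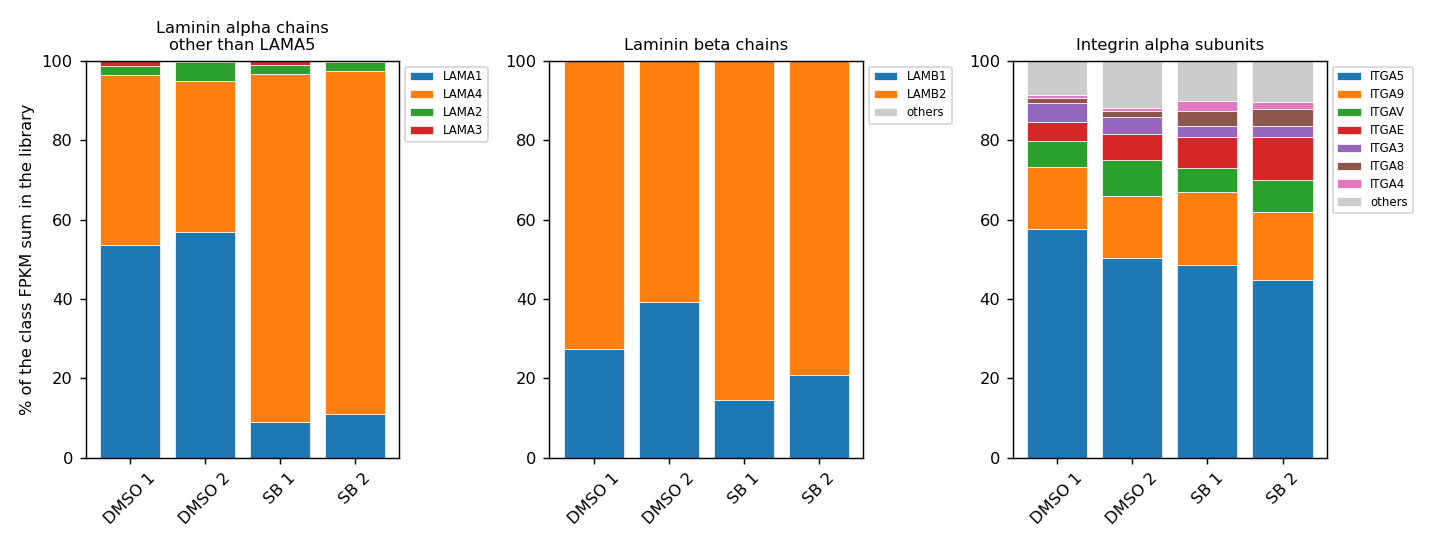
Share of the summed FPKM of a class that each gene made up in each library (stacked bars, percent), for laminin alpha chains other than LAMA5, laminin beta chains and integrin alpha subunits without ITGA2B. LAMA1 takes 53.6% and 56.9% of the first class with DMSO and 8.94% and 11.1% with SB, LAMB1 takes a smaller share of the beta chains with SB, and ITGA5 is the largest share of the integrin alpha subunits plotted in each library.

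The members that were lower with SB are also expressed by epithelial, endodermal and mesenchymal cells, most of whose tested markers were lower too. ITGA8, a subunit of mesenchyme, was higher with SB. The study describes collecting CD31-positive cells, and whether epithelial, endodermal and mesenchymal cells remained in the libraries was not tested. Of 10 epithelial markers 9 were tested and 8 were lower at an unadjusted p under 0.05, against 5.16% of all genes. Their sums were 324 to 335 FPKM with DMSO and 179 to 183 FPKM with SB. Of 10 endoderm and liver markers 9 were tested and 8 were lower, 4 of them past the adjustment (0.134% of all genes). Their sums were 338 to 339 FPKM with DMSO and 49.2 to 78.4 FPKM with SB. Of 10 mesenchymal markers 8 were tested and 6 were lower, with sums of 385 to 418 and of 206 to 212 FPKM. In these 3 lists 0 markers were listed at 0 throughout. Of the 10 endothelial markers 0 were lower and 1 (CLDN5) was higher at an unadjusted p under 0.05 (4.8% of all genes). The median over these 10 markers was -0.09. Their sums were 1633 to 1857 FPKM with DMSO and 1625 to 1814 FPKM with SB. The groups also did not overlap in CDH5 and EMCN, as in 37.5% of all genes. Their differences were -0.28 (limma adjusted p 0.710) and 0.06 (limma adjusted p 0.967). The part of these markers in the laminin and integrin values was not tested.

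Of 18 genes listed as acting beside laminin in the basement membrane, 15 were tested, with a median difference of -0.57. At an unadjusted p under 0.05, 6 were lower with SB (5.16% of all genes) and 0 were higher (4.8% of all genes), and 0 passed the adjustment. HSPG2, which encodes perlecan, stood at 489 and 196 FPKM with DMSO and at 146 and 62.4 FPKM with SB (difference -1.69, SE 0.59, limma adjusted p 0.463). COL15A1, a collagen of vascular basement membrane, stood at 23.3 and 15.3 FPKM with DMSO and at 9.68 and 6.82 FPKM with SB (difference -1.12, SE 0.28, limma adjusted p 0.301). Of 14 non-integrin laminin receptors and their glycosylation genes, all tested, 3 were lower in this way and 0 were higher, SDC3 (-1.04) and SDC2 (-1.02), both syndecans, among them with limma adjusted p of 0.460 and 0.246. None of these genes passed the adjustment (0 with limma).

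Ligands of integrins went both ways. Of 24 symbols listed 22 were in the table and 16 were tested, with a median of 0.06. At an unadjusted p under 0.05, 5 were higher (4.8% of all genes) and 6 were lower (5.16% of all genes). THBS1, a matrix protein that can activate latent TGFβ, and TGFBI, a matrix protein induced by TGFβ, were the 2 that passed the adjustment, with differences of 2.11 and -2.51 (limma adjusted p 0.0463 and 0.0365). FN1, which encodes fibronectin, the ligand of ITGA5, stood at 236 and 291 FPKM with DMSO and at 56.6 and 64.4 FPKM with SB (difference -2.10, SE 0.19, limma adjusted p 0.0646). ICAM2, an endothelial ligand of ITGB2 integrins, stood at 58.0 and 70.1 FPKM with DMSO and at 126 and 144 FPKM with SB (difference 1.07, SE 0.18, limma adjusted p 0.170).

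Proteins that link integrins to the cytoskeleton or switch them on showed more genes higher than lower. Of 39 symbols listed 38 were in the table and 36 were tested. The median was 0.13 and none passed the adjustment (0 with limma). At an unadjusted p under 0.05, 7 were higher (4.8% of all genes) and 2 were lower (5.16% of all genes). APBB1IP, which encodes the RAP1 effector RIAM, stood at 6.42 and 5.65 FPKM with DMSO and at 20.7 and 21.5 FPKM with SB (difference 1.65, SE 0.16, limma adjusted p 0.0753). FYB1, a leukocyte and platelet adaptor, stood at 0.578 and 0.976 FPKM with DMSO and at 4.84 and 6.34 FPKM with SB (difference 1.89, SE 0.24, limma adjusted p 0.0969). The 2 lower genes were TNS1, a tensin of focal adhesions (-1.02, limma adjusted p 0.192), and LIMS2, a partner of integrin-linked kinase (-1.01, limma adjusted p 0.318). Of the 11 tetraspanins that associate with integrins 10 were tested, with a median of 0.27. Only TSPAN4 had an unadjusted p under 0.05 (difference 0.52, limma adjusted p 0.480), against 9.96% of all genes.

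Part of the spread in the members followed the replicate number. In 7 of the 22 tested members the mean difference between replicate 2 and replicate 1 was larger than that between SB and DMSO. The largest gaps were those of LAMA5 (-1.25 with DMSO and -1.29 with SB), LAMC3 (-0.93 and -1.01), ITGB5 (-0.95 and -0.75) and LAMB2 (-0.65 and -0.49). G and C made up 66.4% of the longest LAMA5 transcript, 64.3% of LAMC3, 60.3% of LAMB2 and 54.3% of ITGB5. ITGA1, at 38.8%, was higher in replicate 2 by 0.68 with DMSO and 0.29 with SB. Across 14880 tested genes, which are not independent replicates, GC content and the replicate difference had a Spearman's rho of -0.62 with DMSO and -0.54 with SB, and over the 22 members it was -0.75 and -0.59. GC content and the treatment difference had a rho of -0.11 over all genes and -0.30 over the members. LAMA1 (50.5%), LAMB1 (49.5%) and LAMA4 (46.6%) lay in the middle of this range and differed between replicate numbers by no more than 0.145 in size.

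**Figure D5:**
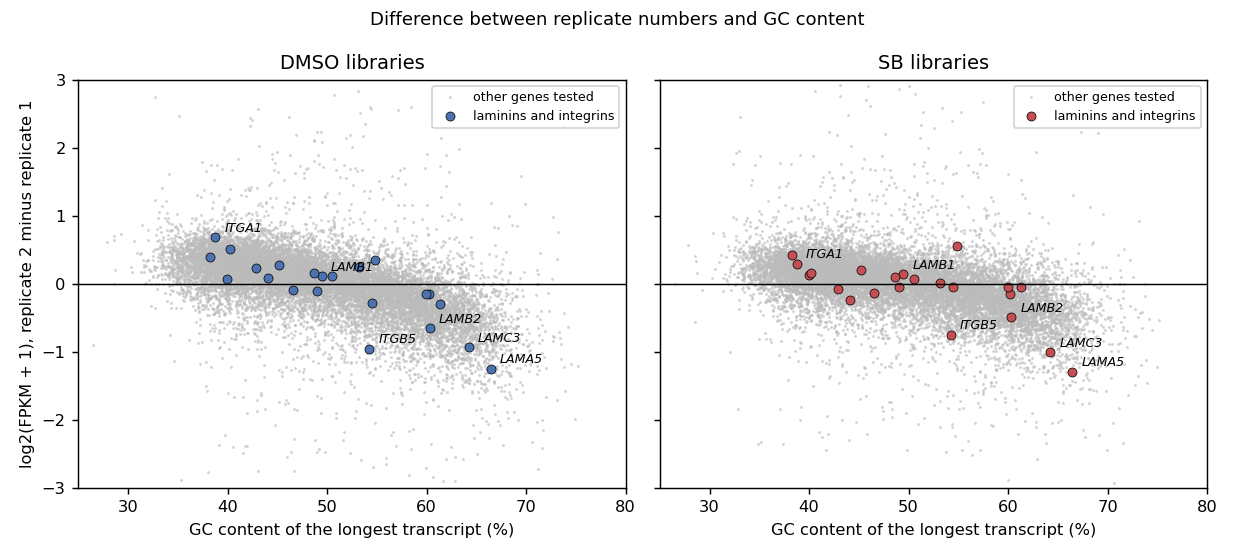
Difference in log2(FPKM + 1) between replicate 2 and replicate 1 against the GC content of the longest annotated transcript (percent), with DMSO (left) and SB (right), for the 22 tested members (large points) and the other genes tested (small grey points, 81 of which lie outside the axes in at least 1 panel). LAMA5 and LAMC3 lie at high GC content with differences near -1 or beyond under either treatment, while LAMB1 lies near 0.

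The sources do not say whether counting used strand, and reads from overlapping genes on opposite strands may therefore be mixed. Among the members given by value, LAMB1 shares exon positions with DLD, LAMA5 with ADRM1, ITGA7 with BLOC1S1, ITGAE with HASPIN and ITGA1, on the same strand, with PELO, and LAMA1, LAMA4, ITGA5, ITGA6, ITGA9, ITGA10, ITGAL, ITGAV, ITGB1, ITGB2 and ITGB8 share some with other annotated transcripts on the opposite strand.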

How the data were processed

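RNA-seq of 4 libraries (2 DMSO, 2 SB) was used, grouped by sample title. The authors deposited 1 table of FPKM values with 58365 rows. The sequencing analysis was carried out for the authors by a company. The submitters' processing notes name BWA, Bowtie and RSEM, with no versions, and hg19. The positions in the rows are those of GRCh38, since 95.5% of identifiers occurred with the same version in GENCODE release 29 and 99.8% of these at the same position. Scaling between libraries beyond FPKM is not given in the sources used here. Starts were shifted to count from 1.

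Values were transformed to log2(FPKM + 1), which understates differences of low genes. The 14909 genes with a mean of at least 1 FPKM in at least 1 group were fitted with limma 3.58.1 in R 4.3.3 (empirical Bayes with a trend, group as the only term), with two-sided p-values adjusted by the Benjamini-Hochberg method over all genes and a threshold of 0.05. The study names Student's t test for comparing groups; an exact permutation of 2 against 2 libraries cannot give a p below 0.333. The fit was tested on simulated data. Library size was read from single-exon genes with 1 transcript over 1000 nt, whose values under 5.5 fragments lay within 0.1 of a whole fragment in 95.8% to 97.0% of cases; it covers these genes and is approximate for genes with several transcripts.

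Members, lists and motifs were chosen with earlier results of these data known. Values per library are given for tested members with a difference of at least 0.5 in size or an unadjusted p under 0.05 and for the most abundant of each role, and from each pathway list at most the 2 highest and 2 lowest differences with such a p. ITGA1, ITGA6, ITGB5 and the low members were given in addition, after their values were seen. The values of 1 member are not reported here. Alternatives tried were a fit blocked on replicate number, other filters, another pseudocount, other scalings, no trend and leaving out each library.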

Additional observations from a re-analysis of the deposited data

How the results depend on the processing

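In a fit with a replicate block, 12 of the 22 tested members passed the adjustment (8 lower, 4 higher; 10.5% of all genes did, 1564 against 20) and 16 had an unadjusted p under 0.05. LAMA5, LAMC3 and ITGAV passed there without an unadjusted p under 0.05 otherwise. The labels do not say that the numbers mark a shared culture or day. The deviations of DMSO replicate 1 and SB replicate 1 from their group means correlated at 0.53 across genes, and with 2 numbers this does not establish a pairing. Without the block, 0 members passed under any alternative, and 0 genes in all passed without a filter or without DMSO replicate 1, 7 without SB replicate 1 and 31 with quantile normalization.

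The laminin median was -0.0855 without a filter and -0.39 with at least 5 FPKM in at least 2 libraries. A pseudocount of 0.1 gave 6 members with a difference of at least 1 in size. Leaving out single libraries gave 5 to 8 members with an unadjusted p under 0.05, 2 to 6 with such a difference and a laminin median of -1.17 to -0.16. Over these, LAMB2 ran from -0.37 to 0.28 (above 0 without DMSO replicate 1 and, at 0.20, without SB replicate 2) and ITGAE from -0.0618 (without SB replicate 2) to 0.49, LAMA5 from -1.31 to -0.0154 and LAMC3 from -1.17 to -0.16. Of 206 values of the 19 named members, 191 kept direction and side of the threshold, 12 passed it under the block alone and 3 (of LAMB2 and ITGAE) changed sign. The cause was not tested. LAMA1, ITGA2 and ITGA4 gave no value under the stricter filter, which they did not pass. At 2 libraries a group the narrowest 95% interval among the members, that of ITGB1, ran from -0.49 to 0.32.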
